A study of Mus musculus with 12 samples.

Results

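Transcription of 10 genes that build, store, break down and export triglyceride was followed through the day in mouse liver. They were taken by name from the 21490 gene symbols of the table: Gpam, Lpin1, Lpin2, Dgat1, Dgat2, Cidec, Pnpla2, Pnpla3, Mttp and Lipc. The measurement was Nascent-Seq, the sequencing of RNA that is still attached to chromatin and is thus being made. The livers came from male wild-type C57BL/6 mice, 3 to 6 months old, kept under equal periods of light and darkness. They were taken every 4 hr from ZT0 to ZT20. Zeitgeber time (ZT) is measured in hours from the onset of light. Each time point had 2 replicates, which makes 12 libraries, and no time point served as a control. Whole liver was used, so fewer cells of a type cannot be told apart from less nascent RNA per cell.

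Triglyceride is assembled in the liver cell by adding fatty acids to glycerol 3-phosphate, with phosphatidate and diacylglycerol as intermediates. It is kept in lipid droplets, from which lipases release it, or it is loaded on apolipoprotein B and secreted in very low density lipoprotein. Liver handles much of the fat that arrives with food and from adipose tissue, and many of its lipid genes are known to vary with the time of day.

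Expression is given in reads per base pair of exon (rpbp), a level per length that can be set side by side between genes. Of the 10 genes, 9 reached more than 6 rpbp in some library and entered the tests. Cidec did not. Pnpla2 and Pnpla3 each passed in 1 library only, so their tests rest on low values, and on the library that let each of them in. A gene was called rhythmic where F24, the share of its variance over the 12 libraries that lies in a 24-hr wave, was over 0.45 with an unadjusted permutation p under 0.05, provided that the highest library exceeded the lowest by more than 1.5 times. The phase is the time at which that wave is highest.

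Lpin1, Lpin2 and Lipc were called rhythmic, and the other 6 tested genes were not. The wave of the lipin genes, which encode phosphatidate phosphatases, was highest near the change from light to darkness, at 10.1 hr for Lpin2 and 13.3 hr for Lpin1. That of Lipc, which encodes the secreted hepatic lipase, was highest late in the night at 23.1 hr. The count of 3 of 9 stands beside 15.2% of all 6284 tested symbols, called by the same rule. The median F24 of the 9 genes was 0.140, below the median of 0.222 over all tested symbols. None of the 3 passed after Benjamini-Hochberg adjustment over all tested symbols (the adjusted permutation p was 0.127 for Lipc, 0.144 for Lpin2 and 0.285 for Lpin1), a limit that 39 symbols of the whole table passed. For orientation, the clock genes Arntl and Nr1d1 had their phases at 22.5 hr and 6.22 hr.

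**Figure D1:**
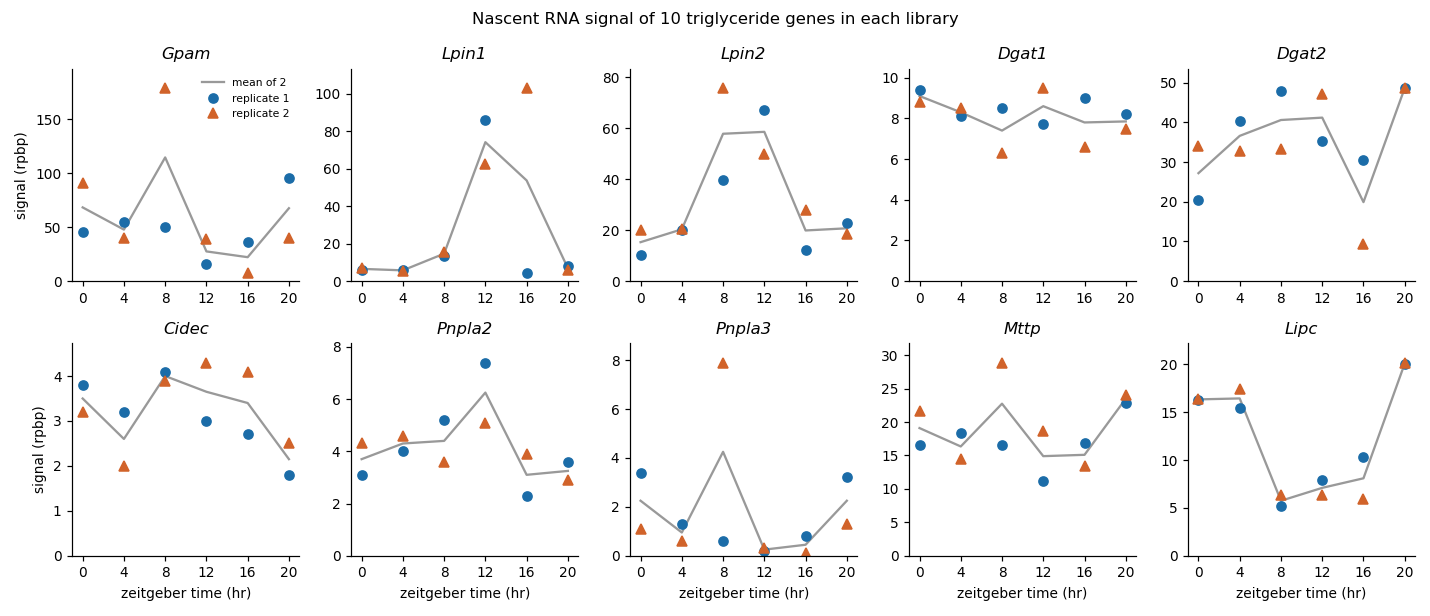
Signal of each gene in rpbp (vertical axes, each from 0) against zeitgeber time in hr, with replicate 1 as circles, replicate 2 as triangles and the mean of the 2 as a line. Lipc lies at or above 15.5 rpbp in all 6 libraries of ZT20, ZT0 and ZT4 and at or below 10.3 rpbp in the others, and the replicates of Lpin1 at ZT16 lie at 4.3 and 103 rpbp.

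The DNA just before the start of the 3 rhythmic genes is shown so that the genes can be placed and compared. The 250 bases before the start in the table, the only start looked at for each gene, were read from the NCBIM37 genome (mm9) and are written 5′ to 3′ on the strand of the gene, with matches to any searched motif in capitals. The windows are chr12:16596577-16596826 on the minus strand, chr17:71531650-71531899 on the plus strand and chr9:70800034-70800283 on the minus strand.
Lpin1: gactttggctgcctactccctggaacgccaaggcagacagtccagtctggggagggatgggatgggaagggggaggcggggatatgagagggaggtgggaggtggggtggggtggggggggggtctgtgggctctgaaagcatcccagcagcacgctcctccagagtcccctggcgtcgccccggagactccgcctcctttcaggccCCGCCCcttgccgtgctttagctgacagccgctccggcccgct
Lpin2: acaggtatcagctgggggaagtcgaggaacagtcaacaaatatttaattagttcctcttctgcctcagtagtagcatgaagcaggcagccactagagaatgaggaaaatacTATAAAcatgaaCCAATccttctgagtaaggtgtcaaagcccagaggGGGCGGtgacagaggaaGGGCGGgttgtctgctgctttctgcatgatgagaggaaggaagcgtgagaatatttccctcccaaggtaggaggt
Lipc: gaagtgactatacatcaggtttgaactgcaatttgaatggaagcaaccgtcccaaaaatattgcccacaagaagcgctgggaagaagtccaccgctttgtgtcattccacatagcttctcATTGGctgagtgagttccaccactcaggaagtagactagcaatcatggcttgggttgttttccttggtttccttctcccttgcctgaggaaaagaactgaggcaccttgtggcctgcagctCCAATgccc
Searched on both strands, the E-box CACGTG, the nuclear receptor element AGGTCA, the D-box core TTANNTAA, the sterol response element TCACNCCAC and the forkhead site GTAAACA had no match in these windows or in those of the other 7 genes. These letters were found in 8.91%, 10.7%, 3.05%, 1.40% and 2.49% of the 4299 windows of tested symbols. No match says only that the letters are not in these 250 bases. The capitals mark matches to the letters of general promoter elements, and whether they act as such was not tested. Lpin1 held 1 GC box (GGGCGG, here on the other strand), which 62.3% of the windows held. Lpin2 held a pair of GC boxes, 1 CCAAT box (CCAAT, in 36.5% of windows) and 1 TATA box (TATAAA, in 6.91% of windows), and Lipc held a pair of CCAAT boxes and no GC box. No capital stretch overlapped another. The TATAAA match of Lpin2 lay 139 to 134 bases before the start. The CCAAT matches of Lipc lay 130 to 126 and 9 to 5 bases before it. The GC content of the windows was 68% for Lpin1, 48% for Lpin2 and 48.4% for Lipc.

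Gpam (chromosome 19, 55144224 to 55201706, minus strand) encodes the mitochondrial enzyme that adds the first fatty acid to glycerol 3-phosphate. Its signal at ZT0, ZT4, ZT8, ZT12, ZT16 and ZT20 was 45.3, 55.1, 50.1, 15.8, 36.6 and 95.0 rpbp in replicate 1 and 91.1, 40.2, 178.9, 39.1, 7.6 and 39.9 rpbp in replicate 2. It had the highest mean of the 10 genes (57.9 rpbp), and the replicates were far apart, with a highest library that was 23.5 times the lowest. The 24-hr wave was highest at 22.6 hr in replicate 1 and at 6.03 hr in replicate 2, and over all libraries F24 was 0.140 (permutation p = 0.561). ZT0 exceeded ZT12 by 1.33 ± 0.786 on the log2(rpbp + 1) scale (SE, limma adjusted p = 0.415). A second symbol in the table, mKIAA1560, overlaps Gpam and shares its reads, and their values had an r of 1.00 over the libraries.

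Lpin1 (chromosome 12, 16543442 to 16596576, minus strand) encodes lipin 1, which turns phosphatidate into diacylglycerol and is also known as a nuclear coactivator. Its signal was 6.0, 6.0, 13.5, 85.7, 4.3 and 7.8 rpbp from ZT0 to ZT20 in replicate 1. In replicate 2 it was 7.0, 5.4, 15.7, 62.4, 103.0 and 5.9 rpbp. Both libraries of ZT12 were thus far above every library of ZT0, ZT4, ZT8 and ZT20, and both of ZT8 were above those of ZT0, ZT4 and ZT20, whereas the libraries of ZT16 held the lowest and the highest value of the gene. In order of means, ZT12 (74.05 ± 16.5 rpbp, SD, n = 2) came first, then ZT16 (53.65 ± 69.8), ZT8 (14.6 ± 1.56), ZT20 (6.85 ± 1.34), ZT0 (6.5 ± 0.707) and ZT4 (5.7 ± 0.424). The last 3 overlapped in their values.

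The difference of the Lpin1 replicates at ZT16 was 4.29 on the log2(rpbp + 1) scale, the third by size among the 6284 tested symbols at that time. ZT16 replicate 2 had a low level over all tested symbols (median log2 deviation from their mean −0.20), and the part of that library in the Lpin1 value was not tested. With the GC trend removed, the ZT16 libraries stood at 4.39 and 114 rpbp, and with libraries rescaled at 4.58 and 121 rpbp. F24 was 0.496 with a phase of 13.3 hr (permutation p = 0.0425). The exact permutation test of each replicate alone did not pass (F24 0.435, p = 0.367 in replicate 1, and F24 0.716, p = 0.15 in replicate 2), where 0.0167 is the smallest p that 6 values allow. The phases of the 2 replicates were 11.7 and 14.3 hr, so the wave was highest within 2.62 hr in both. The rhythmic call is near the limit: it was lost when any library of ZT0, ZT4, ZT12 or ZT20 was left out (permutation p from 0.0527 to 0.0823), with libraries rescaled (p = 0.0525), and with the lanes as a block (p = 0.120).

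ZT12 exceeded ZT0 in Lpin1 more than in any other member: the difference ZT0 minus ZT12 was −3.31 ± 0.974 on the log2 scale (SE), at means of 6.5 and 74.05 rpbp. It did not pass in limma (adjusted p = 0.0883), and the F-test over the 6 time points did not pass either (limma adjusted p = 0.149). The spread in these fits is the one over all libraries of the gene. The widest pair in it is that of ZT16, 4.29 apart on the log2 scale. With ZT16 replicate 1 or ZT16 replicate 2 left out, the ZT0 minus ZT12 value was the same. The ZT16 pair then no longer adds to the spread, so the p-values fall whichever library is dropped. They are not given for that reason. ZT16 itself could not be placed: ZT4 minus ZT16 was −1.81 with both libraries, −3.96 without replicate 1 and 0.34 without replicate 2 of ZT16.

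Lpin2 (chromosome 17, 71531900 to 71597565, plus strand) encodes lipin 2, a phosphatidate phosphatase that is abundant in liver. Its signal was 10.4, 20.2, 39.8, 67.3, 12.0 and 22.8 rpbp from ZT0 to ZT20 in replicate 1, and 20.1, 20.4, 75.8, 49.8, 27.7 and 18.6 rpbp in replicate 2. All 4 libraries of ZT8 and ZT12 lay above the 8 others, whose highest value was 27.7 rpbp. The means of ZT12 (58.55 ± 12.4 rpbp, SD, n = 2) and ZT8 (57.8 ± 25.5) overlapped in their values. They were followed by ZT20 (20.7 ± 2.97), ZT4 (20.3 ± 0.141), ZT16 (19.85 ± 11.1) and ZT0 (15.25 ± 6.86), each of which overlapped its neighbour in that order. F24 was 0.634 with a phase of 10.1 hr (permutation p = 0.00692), and the phases of the replicates were 10.7 and 9.67 hr. Neither replicate alone passed the exact permutation test (p = 0.267 and 0.117). The rhythmic call was kept with each of the 12 libraries left out in turn.

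Between time points 12 hr apart, Lpin2 was higher at ZT12 than at ZT0, with a difference ZT0 minus ZT12 of −1.93 ± 0.426 on the log2 scale (SE, limma adjusted p = 0.0336). ZT8 exceeded ZT20 by 1.37 ± 0.426, which did not pass (limma adjusted p = 0.167), and ZT4 minus ZT16 was 0.14 ± 0.426. The F-test over the 6 time points passed at a limma adjusted p of 0.0466. That call is at the limit: it was lost when any library of ZT0, ZT4, ZT12 or ZT20, or ZT8 replicate 2, was left out (adjusted p from 0.0577 to 0.124), and with 0.1 added, above 3 rpbp, with no threshold, with libraries rescaled or with the GC trend removed (adjusted p from 0.0525 to 0.142). The ZT0 and ZT12 difference did not pass when any library of ZT0, ZT12 or ZT20 was left out (adjusted p from 0.0534 to 0.271), with values from −2.37 to −1.48.

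Lpin1 and Lpin2, which perform the same reaction, were set against each other by the F24 of their log2 ratio. The ratio lay between −2.20 and −0.70 in 9 libraries and at 0.34, 0.32 and 1.86 in both libraries of ZT12 and in ZT16 replicate 2, the 3 libraries in which Lpin1 was the higher of the pair. A 24-hr wave in the ratio did not pass (F24 0.391, permutation p = 0.10, adjusted over the 5 ratios 0.251), so a difference in timing between the pair was not shown. Over the 12 libraries their log2 values had an r of 0.686, and 0.903 without ZT8 replicate 2 and ZT16 replicate 2, a choice made after seeing the data. The libraries share depth and GC trends across genes.

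The diacylglycerol acyltransferases add the last fatty acid. Dgat1 (chromosome 15, 76332445 to 76342248, minus strand) was the flattest of the tested genes of the group, with 9.4, 8.1, 8.5, 7.7, 9.0 and 8.2 rpbp from ZT0 to ZT20 in replicate 1 and 8.8, 8.5, 6.3, 9.5, 6.6 and 7.5 rpbp in replicate 2. Its highest library was 1.51 times the lowest, and its coefficient of variation over the libraries (0.124) exceeded that of only 4.25% of the tested symbols. F24 was 0.0566 (permutation p = 0.761), and the 3 differences between time points 12 hr apart lay between −0.09 and 0.09 on the log2 scale, each with an SE of 0.213. A second symbol, Dgat, overlaps Dgat1, so part of the signal may be counted in both.

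Dgat2 (chromosome 7, 106302173 to 106331223, minus strand), an enzyme unrelated in sequence that performs the same step, had 20.4, 40.4, 48.0, 35.3, 30.4 and 48.6 rpbp in replicate 1 and 34.0, 32.8, 33.2, 47.1, 9.4 and 48.7 rpbp in replicate 2. Its lowest value was that of ZT16 replicate 2, at 9.4 against 30.4 rpbp in the other library of that time. F24 was 0.0243 with all libraries (permutation p = 0.90). The largest of its differences was ZT4 minus ZT16 at 1.05 ± 0.447 (SE, limma adjusted p = 0.236). It was 1.85 without ZT16 replicate 1 and 0.25 without ZT16 replicate 2. The F-test did not pass with all libraries (limma adjusted p = 0.222). With a library of ZT16 left out, the pair of that time no longer adds to the spread, so p-values are not given there. The ratio of Dgat1 to Dgat2 held no 24-hr wave that passed (F24 0.0731, permutation p = 0.729, adjusted 0.729). In level per length, the Dgat2 mean of 35.7 rpbp stood above the Dgat1 mean of 8.18 rpbp, and Dgat2 was the higher in each of the 12 libraries.

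Cidec (chromosome 6, 113374630 to 113385754, minus strand), which encodes a protein that enlarges lipid droplets, was below the limit of 6 rpbp in every library and was not tested. Its values were 3.8, 3.2, 4.1, 3.0, 2.7 and 1.8 rpbp in replicate 1 and 3.2, 2.0, 3.9, 4.3, 4.1 and 2.5 rpbp in replicate 2. Both libraries of ZT20 lay below both libraries of ZT0, ZT8, ZT12 and ZT16. Markers of fat cells, where Cidec is abundant, summed to between 0 and 1.3 rpbp in a library over 6 genes, with Lep and Plin1 (Plin in the table) at 0 throughout.

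Pnpla2 (chromosome 7, 148641106 to 148645993, plus strand) encodes adipose triglyceride lipase, the enzyme of the first step of droplet lipolysis. Its signal was 3.1, 4.0, 5.2, 7.4, 2.3 and 3.6 rpbp in replicate 1 and 4.3, 4.6, 3.6, 5.1, 3.9 and 2.9 rpbp in replicate 2, with the highest value of each replicate at ZT12. F24 was 0.358 with a phase of 9.41 hr (permutation p = 0.118), and no difference 12 hr apart passed. The largest was ZT0 minus ZT12 at −0.62 ± 0.269 (SE, limma adjusted p = 0.253). The gene entered the tests only through ZT12 replicate 1, at the time of its highest mean. Without ZT8 replicate 2 its F24 was 0.519 (permutation p = 0.0379). With any other single library left out, F24 was at most 0.448 (without ZT16 replicate 1), below the limit of 0.45. ZT8 replicate 2 had the steepest GC trend. Its median log2 deviation fell by 1.21 from the lowest to the highest of 20 bins of exon GC content. With the trend removed from all libraries, F24 of Pnpla2 was 0.444 (permutation p = 0.0615) and did not pass. The part of the GC trend in the Pnpla2 values was not tested.

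Pnpla3 (chromosome 15, 83998246 to 84019951, plus strand) encodes a droplet protein related to that lipase and had the lowest mean of the group, 1.73 rpbp. Replicate 1 gave 3.4, 1.3, 0.6, 0.2, 0.8 and 3.2 rpbp and replicate 2 gave 1.1, 0.6, 7.9, 0.3, 0.1 and 1.3 rpbp. Apart from ZT8 replicate 2, the values of both replicates were highest at ZT20 and ZT0, and at or below 0.8 rpbp at ZT12 and ZT16. That library alone, at 7.9 against 0.6 rpbp in the other library of ZT8, passed the limit of 6 rpbp, and the replicate difference there (2.48 log2) ranked 21 by size among the tested symbols. With it, F24 was 0.0768 (permutation p = 0.807). Without it, F24 was 0.530 with a phase of 22.7 hr (permutation p = 0.0314), but no library of the gene then exceeds 3.4 rpbp, so that it would not enter the tests and this value is a description. Replicate 1 alone gave F24 0.909 (exact permutation p = 0.0167, the smallest possible) and replicate 2 alone 0.321 (exact permutation p = 0.817).

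The ratio of Pnpla2 to Pnpla3 was between −0.10 and 2.81 on the log2 scale in 11 libraries and −0.95 in ZT8 replicate 2. Its F24 was 0.192 (permutation p = 0.379, adjusted 0.473), and 0.677 without that library (adjusted permutation p = 0.0735). The ratio of Gpam to Pnpla2, the first step of synthesis against the first of hydrolysis, ran from 0.81 in ZT16 replicate 2 to 5.29 in ZT8 replicate 2, with F24 0.249 (permutation p = 0.288, adjusted 0.473).

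Mttp (chromosome 3, 137753850 to 137806352, minus strand) encodes the microsomal triglyceride transfer protein, which loads lipid on apolipoprotein B. Its signal was 16.6, 18.3, 16.6, 11.2, 16.8 and 22.9 rpbp in replicate 1 and 21.6, 14.4, 28.9, 18.6, 13.4 and 24.1 rpbp in replicate 2. ZT20 had the highest mean (23.5 ± 0.849 rpbp, SD, n = 2) and ZT12 the lowest (14.9 ± 5.23), but the highest library was ZT8 replicate 2. F24 was 0.0661 (permutation p = 0.733), and its differences 12 hr apart ran from −0.09 to 0.37 on the log2 scale, each with an SE of 0.306. ZT8 replicate 2 also held the highest value of Gpam, Lpin2 and Pnpla3. Over the 12 libraries the log2 values of Mttp had an r of 0.828 with Gpam and 0.746 with Pnpla3, and those of Gpam and Pnpla3 an r of 0.790. Without ZT8 and ZT16 replicate 2 these were 0.770, 0.525 and 0.607.

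Lipc (chromosome 9, 70645935 to 70800033, minus strand) encodes hepatic lipase, which acts on triglyceride and phospholipid of circulating lipoproteins. Its signal was 16.3, 15.5, 5.2, 7.9, 10.3 and 20 rpbp from ZT0 to ZT20 in replicate 1, and 16.4, 17.4, 6.3, 6.3, 5.9 and 20.2 rpbp in replicate 2. All 6 libraries of ZT20, ZT0 and ZT4 were above all 6 of ZT8, ZT12 and ZT16. In order of means, ZT20 (20.1 ± 0.141 rpbp, SD, n = 2) stood above ZT4 (16.45 ± 1.34) and ZT0 (16.35 ± 0.0707), which overlapped, followed by ZT16 (8.1 ± 3.11), ZT12 (7.1 ± 1.13) and ZT8 (5.75 ± 0.778), each of which overlapped or touched the next. Of its variance, 96.5% lay between time points, the highest share of the 10 genes.

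F24 of Lipc was 0.797, rank 71 of the tested symbols, with a phase of 23.1 hr (permutation p = 0.00447) and phases of 22.4 and 23.7 hr in the replicates. Neither replicate alone passed the exact permutation test (p = 0.10 and 0.30). The rhythmic call of Lipc was kept with each of the 12 libraries left out in turn. It was also kept with log2 values, rescaled libraries, the GC trend removed, and lanes or replicate as a block, but not with the adjusted p. The other thresholds could not change it, since they only set which symbols are tested. The F-test over the 6 time points passed in limma (adjusted p = 0.0104). ZT8 minus ZT20 was −1.65 ± 0.242 on the log2 scale (SE, limma adjusted p = 0.0101) and ZT0 minus ZT12 was 1.11 ± 0.242 (limma adjusted p = 0.0324). ZT4 minus ZT16 was 0.98 ± 0.242 and did not pass (limma adjusted p = 0.0693). It was 1.34 without ZT16 replicate 1 and 0.62 without ZT16 replicate 2. The ZT16 pair then no longer adds to the spread, so p-values are not given there. The call of ZT8 against ZT20 was lost without ZT8 replicate 1 or either library of ZT20 (adjusted p from 0.0777 to 0.0960), and that of ZT0 against ZT12 without any library of ZT0, ZT4, ZT12 or ZT20 (adjusted p from 0.0513 to 0.175), with values from 0.96 to 1.25 on the same side.

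**Figure D2:**
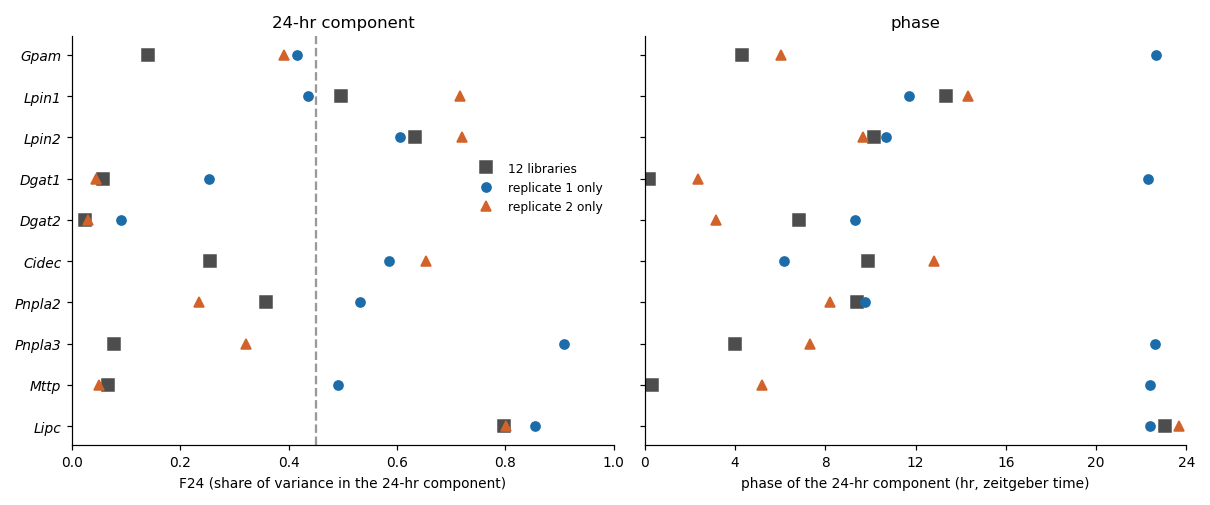
Left, F24 of each gene on a scale from 0 to 1 for all 12 libraries (squares), replicate 1 (circles) and replicate 2 (triangles), with the limit of 0.45 as a dashed line; right, the phase in hr of zeitgeber time for the same. Lpin2 and Lipc lie to the right of the limit in both replicates with phases 1.02 and 1.27 hr apart, whereas the phases of Gpam are 7.40 hr apart. Cidec, below the limit of 6 rpbp, also lies to the right in both replicates, with phases 6.64 hr apart. In 1 replicate alone, neither Lpin2 nor Lipc passed the exact permutation test.

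The phases of Lpin2 and Lpin1 (10.1 and 13.3 hr) lay far from that of Lipc (23.1 hr), but the difference in phase was not tested. Over the 12 libraries, the log2 values of Lipc had an r of −0.718 with Lpin1 and −0.689 with Lpin2, given as a description. Set against Mttp, the secretion gene, Lipc had a log2 ratio of Mttp to Lipc from −0.26 to 0.38 in the 6 libraries of ZT20, ZT0 and ZT4 and from 0.46 to 2.03 in the other 6. The ranges did not overlap, but this split was read from the values of Lipc itself, so it largely restates them. The wave in the ratio did not pass over the 5 ratios (F24 0.523, permutation p = 0.0391, adjusted 0.196). With a library left out, the F24 of this ratio ran from 0.462 without ZT12 replicate 2 to 0.706 without ZT12 replicate 1.

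**Figure D3:**
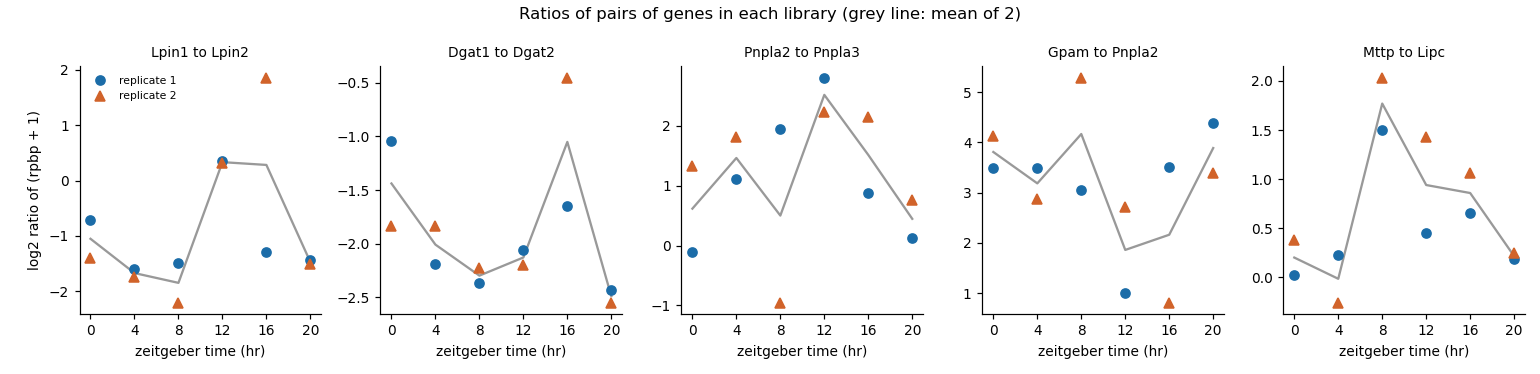
Log2 ratio of rpbp + 1 for 5 pairs of genes against zeitgeber time in hr, with replicate 1 as circles, replicate 2 as triangles and the mean of the 2 as a line. The ratio of Mttp to Lipc is highest at ZT8 (1.51 and 2.03), and that of Lpin1 to Lpin2 stands at 1.86 in ZT16 replicate 2 against −1.29 in replicate 1.

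Across the 9 tested genes, the F-test over time points passed for 2 (Lpin2 and Lipc), beside 7.65% of the 6284 tested symbols. Between ZT0 and ZT12, 2 of the 9 passed (Lpin2 and Lipc), beside 4.44% of all symbols. Between ZT8 and ZT20, 1 passed (Lipc), beside 1.58%. Between ZT4 and ZT16 none of the 9 passed in limma, beside 2.1%, while Dgat2 and Lipc had an unadjusted p under 0.05 (0.0404 and 0.00223) there, beside 19.4% of all symbols. Each of these differences compares libraries run in the same number of sequencing lanes. Over all tested symbols, the median of ZT4 minus ZT16 was 0.199 on the log2 scale. It was −0.028 for ZT0 minus ZT12 and −0.0037 for ZT8 minus ZT20.

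**Figure D4:**
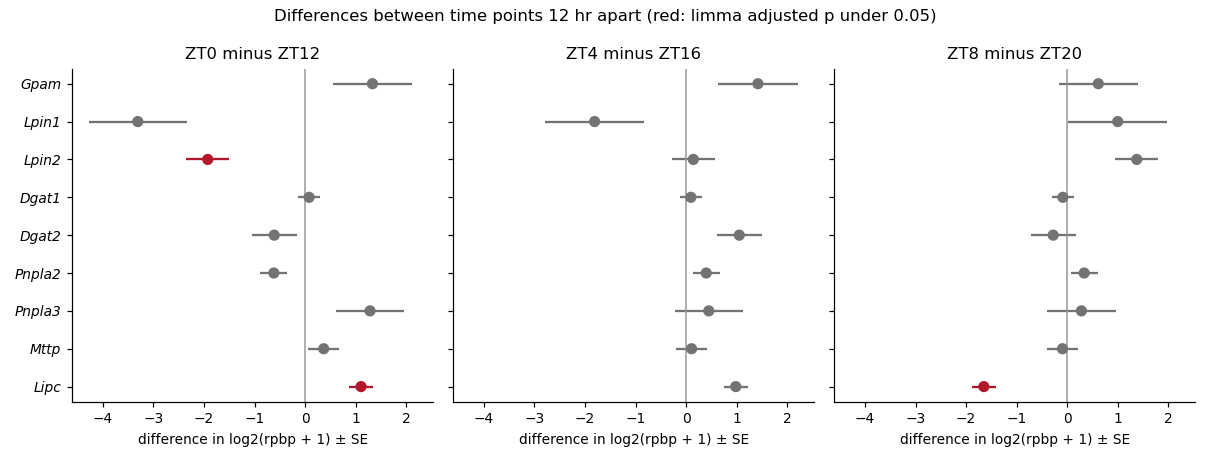
Difference in log2(rpbp + 1) with its SE between time points 12 hr apart for the 9 tested genes, each point resting on 2 libraries against 2, with limma adjusted p under 0.05 in red. Lpin2 (−1.93) and Lipc (1.11) pass for ZT0 minus ZT12, and Lipc (−1.65) passes for ZT8 minus ZT20; the estimate of Lpin1 (−3.31) has the widest SE.

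The libraries bear on these values. Signal summed to between 118342 and 160545 rpbp in a library, and read numbers were not used here. ZT8 and ZT20 libraries took 2 lanes and the others 1. The replicates of ZT16 differed by over 2-fold (1 rpbp added) in 9.33% of the tested symbols and those of ZT8 in 6.11%, against 1.96% to 3.63% at the other times. In the group, Lpin1, Lpin2, Gpam and Dgat2 differed by over 2-fold at ZT16, the first 2 higher and the others lower in replicate 2, and Gpam and Pnpla3 did at ZT8. At the other times Pnpla3 did at ZT0 and Gpam at ZT12 and ZT20. Hepatocyte markers summed to between 545.7 and 1536.9 rpbp over 6 genes, with the lowest sums in ZT0 replicate 1 and ZT16 replicate 2 (571.6 rpbp). These markers did not move together. In ZT16 replicate 2, Alb (160.3 rpbp), Ttr (24.6), Apoa2 (20.8) and Serpina1a (1.6) were at their lowest. Cps1 stood there at 323.8 rpbp, above its mean of 246.8, and Hnf4a at 40.5 rpbp, below its mean of 47.9. Macrophage markers summed to between 14.7 and 49.7 rpbp and endothelial markers to between 9.5 and 22 rpbp, both highest in ZT8 replicate 1 and lowest in ZT8 replicate 2. Within the macrophage list, Marco (20.5 rpbp) and Emr1 (17.3 rpbp) were at their highest in ZT8 replicate 1. Clec4f, the gene of that list with the highest mean, was at its lowest there (1.6 rpbp). Csf1r (7.0 rpbp) and Cd68 (3.3 rpbp) were within the range of the other libraries. The other sums ran for stellate cells from 6.8 to 10.6 rpbp, for cholangiocytes from 0.8 to 2.2 rpbp and for blood cells from 11 to 22.6 rpbp. The part of these differences in the results was not tested.

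**Figure D5:**
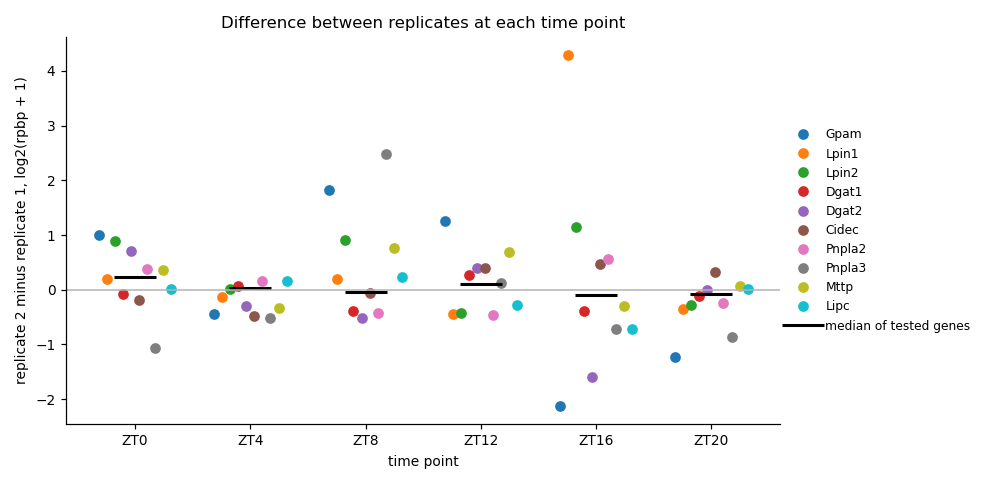
Difference between replicate 2 and replicate 1 in log2(rpbp + 1) for each gene and time point, with a bar for the median of the tested symbols. The highest point is Lpin1 at ZT16 (4.29), followed by Pnpla3 at ZT8 (2.48); Lipc lies between −0.71 and 0.24.

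Other genes of the pathway were taken from 5 lists of 62 genes, of which 58 were found in the table and 42 tested. Of the 42, 8 were called rhythmic and 6 passed the F-test in limma, beside the 15.2% and 7.65% of all symbols, and their median F24 was 0.219 (0.222 over all tested symbols). None of the 8 passed the adjusted permutation p, which ran from 0.0961 for Foxo1 to 0.284 for Gpd1. Among 11 tested genes of synthesis, Gpd1 was called rhythmic. This enzyme, which makes glycerol 3-phosphate, had its highest mean at ZT0 (21.9 ± 3.11 rpbp, SD, n = 2) and its lowest at ZT16 (8.5 ± 6.93), with a phase of 0.411 hr (permutation p = 0.0421). No gene of that list passed the F-test in limma, and none had an unadjusted p under 0.05 there, beside 27.6% of all tested symbols.

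Of 5 tested droplet genes, G0s2, an inhibitor of adipose triglyceride lipase, was called rhythmic (F24 0.554, phase 1.54 hr, permutation p = 0.0305), with means from 72.95 ± 3.46 rpbp at ZT0 to 23.85 ± 13.4 rpbp at ZT12 (SD, n = 2). Of the perilipins, which coat droplets, 3 passed the F-test in limma, each with its own pattern. Plin2 (Adfp in the table) was highest at ZT8 (47.4 ± 0.283 rpbp) and lowest at ZT12 (10.55 ± 2.47; adjusted p = 0.00868). Plin5 (2310076L09Rik) was highest at ZT12 (21.05 ± 5.02 rpbp) and lowest at ZT8 (5.6 ± 1.41; adjusted p = 0.0121). Plin4 (S3-12) was highest at ZT0 (39.85 ± 15.5 rpbp) and lowest at ZT4 (7 ± 2.69; adjusted p = 0.0491).

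Of 9 tested genes of triglyceride hydrolysis, Pnpla6 and Pnpla7, which are phospholipases of the patatin family, were called rhythmic with phases of 19.0 and 6.66 hr (permutation p = 0.0232 and 0.0289). The F-test passed in limma for Pnpla7 (adjusted p = 0.0416), from 9.65 ± 0.636 rpbp at ZT12 to 4.55 ± 0.0707 rpbp at ZT16 (SD, n = 2). It also passed for Ces3, a microsomal triglyceride hydrolase of the carboxylesterase family (adjusted p = 0.0447), from 159.9 ± 52.0 rpbp at ZT8 to 21.45 ± 7.42 rpbp at ZT0. The authors used only uniquely mapped reads, so reads that also match its close copies would be missing from its signal. Of 9 tested genes of lipoprotein secretion and lipolysis, Angptl4, an inhibitor of lipoprotein lipase, was called rhythmic with a phase of 11.6 hr (permutation p = 0.0159). Its mean was 30.4 ± 0.849 rpbp at ZT12 and 6.2 ± 1.27 rpbp at ZT0.

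Of 8 tested regulators, 3 were called rhythmic. Ppara, a receptor for fatty acids, had a phase of 8.08 hr (permutation p = 0.0160) and means from 90.65 ± 15.9 rpbp at ZT8 to 32.7 ± 18.8 rpbp at ZT16 (SD, n = 2). Ppargc1b, a coactivator, had a phase of 9.29 hr (permutation p = 0.0409). Foxo1, a factor that insulin holds back, had a phase of 12.7 hr (permutation p = 0.00213) and passed the F-test in limma (adjusted p = 0.0174), its mean lying between 6.1 ± 0.566 rpbp at ZT0 and 17.65 ± 1.06 rpbp at ZT12.

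By the correlation of log2 values over the 12 libraries, the 3 symbols most like each rhythmic gene were listed as a description. For Lpin1 they were GDNFR-alpha and Gfra1 (r = 0.932 and 0.931), which are names of the same locus, and BC019819 (r = 0.924). Gfra1, too, had unequal libraries at ZT16, at 10.3 and 46.2 rpbp. For Lpin2 they were BC038156 (r = 0.936), mKIAA0769 (r = 0.928) and Nhlrc2 (r = 0.916). For Lipc they were Lgals9 (r = 0.968), Cldn1 (r = 0.945) and Galt (r = 0.934), with phases of 22.5, 22.7 and 23.4 hr. Lgals9 had 39.1 and 35.2 rpbp at ZT20 and 12.3 and 12.6 rpbp at ZT8.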

How the data were processed

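Nascent RNA was measured in 12 mouse liver libraries, grouped by the time points and replicate numbers of the labels. The authors aligned the reads to mm9 with TopHat (base calls by CASAVA 1.7, per the labels). They deposited 1 signal per symbol, the coverage of merged exons per base pair without strand, with each library brought to an equal read number. Deposited columns with the authors' own rhythm statistics were not used.

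Blank lines (27919) were dropped. Tests covered the 6284 symbols with over 6 rpbp in any library. The one-sided p of F24 came from 100000 permutations of the 12 linear values, with all 720 orders for 1 replicate alone. limma 3.58.1 (R 4.3.3) fitted log2(rpbp + 1) by time point. Benjamini-Hochberg adjustment ran over all tested symbols, and over 5 for the ratios. Scripts ran in Python 3.11.15 and were tested on simulated data. Coordinates are mm9, counted from 1, with strand from GENCODE M1. No read numbers were used, so the 2 replicates limit the precision. Nothing says whether replicates were separate animals or pools, so p-values measure the spread between these libraries.

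The 10 genes and the lists were chosen with earlier results of these data known. Named beside them are list genes called by either test, clock landmarks, and the 3 symbols most correlated with each rhythmic gene, overlapping symbols left out. The motifs for GC, CCAAT and TATA boxes were added after the first 5 were searched. Alternatives were thresholds of 3 and 12 rpbp, on the mean, or none; log2 values with 1 or 0.1 added; adjusted p; rescaled libraries; removal of the trend over 20 bins of exon GC content; lanes or replicate as a block; and each library left out.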

Additional observations from a re-analysis of the deposited data

How the results depend on the processing

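Of the 9 tested genes, 3 were rhythmic (Lpin1, Lpin2 and Lipc), 0 with the adjusted p, and between 2 and 5 with a library left out, the 5 without ZT8 replicate 2, which added Pnpla2 and Pnpla3. The tested symbols were kept fixed there, and Pnpla3 exceeds 6 rpbp in that library only, so its addition is no call. Of all symbols, 954 were rhythmic, against 508 above 12 rpbp, 2220 with no threshold, 39 with the adjusted p and between 806 and 1272 with a library left out. The F-test passed for 2 genes of the group, for 1 (Lipc) with 0.1 added, above 3 rpbp, with no threshold, with libraries rescaled or with the GC trend removed, and for between 1 and 4 with a library left out. Over all symbols it passed for 481, for 133 with no threshold and for between 170 and 638 with a library left out; these fits hold fewer samples or more tested symbols. The group's differences 12 hr apart passed 3 times, 1 time with no threshold and between 0 and 8 times with a library left out, the 8 without ZT16 replicate 1. A time point left with 1 library no longer adds its pair to the spread, so higher limma counts there are not added support. The ratio of Mttp to Lipc had F24 from 0.462 to 0.706 with a library left out. Of 919 recomputed values of single genes, 832 kept their side of the threshold and, for differences, their sign, 47 no longer passed, 16 newly passed, and 24 differences of 6 genes, none of which passed, changed sign. Except where the setting itself removes samples, the cause was not tested. Some of the 832 values could not change. A threshold leaves the F24 of a gene as it was, and a left-out library leaves the size of differences between other times as it was.

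These sign changes are given on the log2 scale. The median of ZT4 minus ZT16 over all tested symbols was 0.199 as deposited and −0.00072 with libraries rescaled. With libraries rescaled, ZT4 minus ZT16 was −0.077 for Lpin2, −0.11 for Dgat1 and −0.11 for Mttp, and with the GC trend removed it was −0.12 for Lpin2 and −0.18 for Mttp, while ZT8 minus ZT20 was 0.057 for Dgat1. With a library left out, ZT4 minus ZT16 ran from −3.96 to 0.34 for Lpin1, from −0.43 to 0.71 for Lpin2, from −0.11 to 0.29 for Dgat1 and from −0.056 to 0.27 for Mttp. Likewise, ZT8 minus ZT20 ran from −0.29 to 1.52 for Gpam, from −0.28 to 0.10 for Dgat1, from −0.96 to 1.52 for Pnpla3 and from −0.48 to 0.29 for Mttp, and ZT0 minus ZT12 from −0.057 to 0.21 for Dgat1. Without both ZT8 replicate 2 and ZT16 replicate 2, ZT4 minus ZT16 was 0.34 for Lpin1, −0.11 for Dgat1 and −0.046 for Mttp, and ZT8 minus ZT20 was −0.29 for Gpam, 0.10 for Dgat1 and −0.96 for Pnpla3.

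Leaving out both ZT8 replicate 2 and ZT16 replicate 2 was a choice made once the values were known, and it leaves 1 library at each of these times. F24 was then 0.569 for Lpin1, 0.649 for Lpin2, 0.830 for Lipc, 0.517 for Pnpla2 and 0.102 for Dgat2. It was 0.553 for Pnpla3, which then exceeds 6 rpbp nowhere. The limma tests are not given there, since the ZT16 pair of Lpin1 no longer adds to its spread.

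The correlation of the deviations of same-numbered samples ran from −0.117 to 0.320 over 15 pairs of time points (median 0.0734). It was over 0.1 in 5 pairs, among them ZT8 with ZT16 (0.225), ZT8 with ZT20 (0.320) and ZT16 with ZT20 (0.202), and not in the others, so the numbers were not taken to pair the samples. With the replicate as a block, 977 symbols and 2 genes of the group were rhythmic, Lpin1 being lost (permutation p = 0.0536), and the block changed no other call of the group.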
